A study of Mus musculus with 48 samples.

Results

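Kit, Flt3, Cd34, Cd27 and Ctla2a are genes whose transcripts are used to recognise immature haematopoietic cells. They were taken by name from a table of 34643 gene rows, so the group described is 5 of 34643 rows, each followed in 48 RNA-seq libraries. Kit, Flt3, Cd34 and Cd27 encode cell-surface proteins. Ctla2a does not: it encodes a secreted inhibitor of cysteine proteases that resembles a cathepsin propeptide, so it belongs with the others by its place in progenitor cells and not by its location.

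The libraries came from 24 clones of ER-Hoxb8 cells, which are mouse bone marrow progenitors held in a dividing state by Hoxb8 fused to the hormone-binding domain of the estrogen receptor. Each clone gave 1 library labelled as granulocyte-monocyte progenitors (progenitor, n = 24) and 1 labelled as monocytic (monocyte, n = 24), and both carry the ER-Hoxb8 transgene. Growth in RPMI medium with 10% FBS, antibiotics and SCF (stem cell factor, the ligand of Kit) is stated alike for all 48 samples, and the sources at hand do not say how the monocyte state was reached. Each clone is 1 culture per state, and the sources at hand do not name the animals behind the clones or their age, sex and strain, so the spread reported is between clones.

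Kit and Flt3 are class III receptor tyrosine kinases: binding of their ligands, Kitl and Flt3l, brings receptors together and starts signalling that keeps progenitors alive and dividing. Kit is retained on mast cells after other lineages lose it, Flt3 on dendritic cells, and Cd34, a sialomucin, also marks endothelium and mast cells. Cd27 is a TNF receptor family member, bound by Cd70, that divides early multipotent cells into subsets and is found on many lymphocytes.

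Values are TPM, the usual unit of relative transcript abundance, corrected for transcript length and relative to the total of a library, so sequencing depth is unknown and levels of different genes can be set side by side. The clones fall into clones 1 to 13 (13 clones) and clones 15 to 26 (11 clones), a division seen in the numbering and in the data and not a batch named in the labels. In progenitor libraries the share of mitochondrial transcripts had a median of 5.39% in clones 1 to 13 and 11.9% in clones 15 to 26, and the number of genes with at least 1 TPM had a median of 10004 and 10842. Libraries of clones 19, 21, 24 and 26 stood apart. As many as 23247 genes were at 0 in progenitor 21, and as few as 8240 had at least 1 TPM in progenitor 24. The mitochondrial share reached 25.1% in monocyte 26. In clone 19 it was 19.2% in the monocyte library, while progenitor 19 had 10715 genes with at least 1 TPM. No computed cutoff chose these 4 clones, and monocyte 8, with 9461 such genes, was kept. Progenitors 20 and 21 stood apart in markers of mature cells. Their 6 neutrophil markers summed to 10685 and 6077 TPM, against a median of 26.8 TPM over progenitors, and their 8 monocyte and macrophage markers to 1250 and 1340 TPM, against 179 TPM. Among 8 monocyte and macrophage markers all 8 reached a mean of 1 TPM in the monocyte libraries, and 6 did so among progenitors. Their sum had a median of 11565 TPM among monocytes. Ccr2 went the other way, with means of 64.2 TPM among progenitors and 38.3 TPM among monocytes. In the monocyte libraries 6 neutrophil markers summed to between 343 and 183317 TPM, so these libraries held neutrophil as well as monocyte transcripts.

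In the progenitor state the 5 genes together made up 248.5 to 1060 TPM, with a median of 681. In the monocyte state their sum lay between 6.88 and 65.7 TPM, with a median of 25.3. All 5 were lower in the monocyte state (limma, a linear model fitted to log2(TPM + 1) over all genes and blocked on clone, p adjusted by Benjamini-Hochberg over 11072 genes), against a background in which 36.5% of the genes tested were lower, 32.4% higher and 68.8% either. In 3 of the 5, Flt3, Cd34 and Ctla2a, every monocyte library lay below every progenitor library, which held for 0.56% of all genes tested. In bulk RNA, fewer cells that carry a transcript and less of it per cell cannot be told apart.

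**Figure D1:**
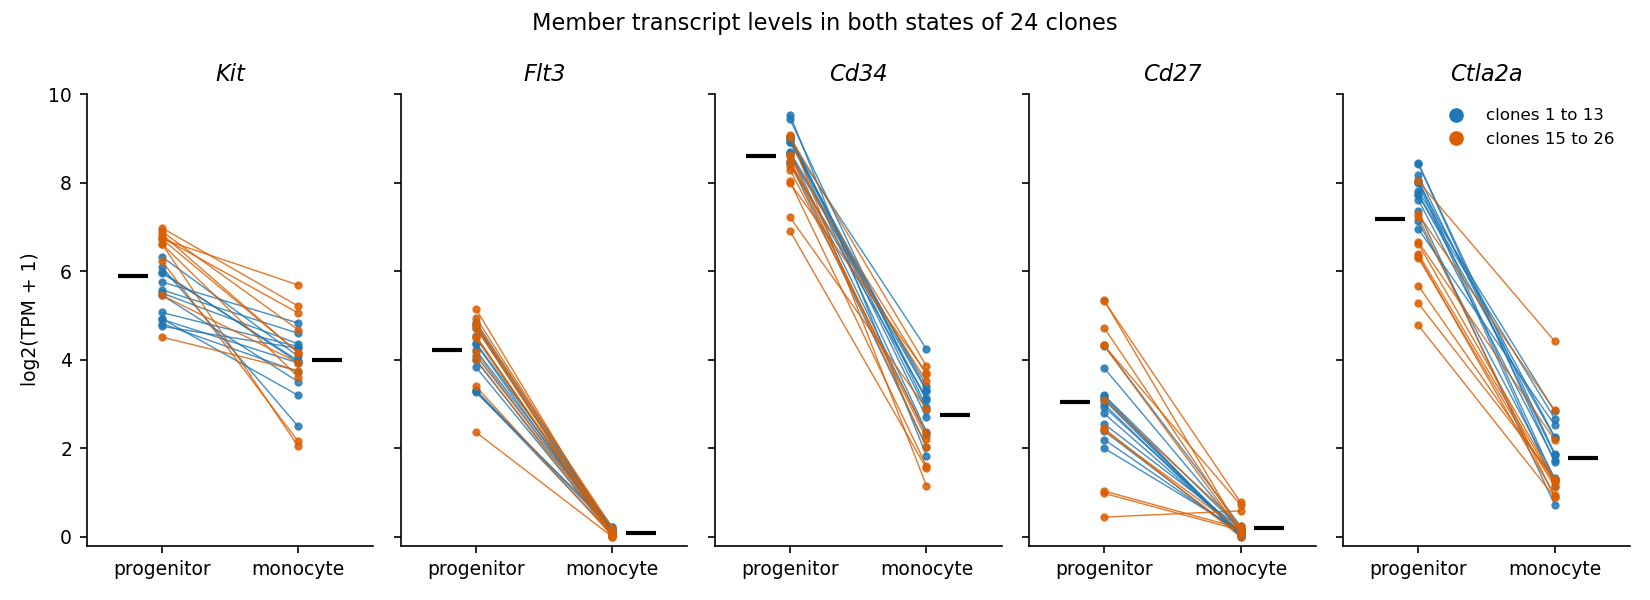
Transcript level of Kit, Flt3, Cd34, Cd27 and Ctla2a as log2(TPM + 1) in the progenitor and the monocyte library of each clone, joined by a line (blue, clones 1 to 13; orange, clones 15 to 26; black bars, means over 24 clones). The Flt3, Cd34 and Ctla2a points of the 2 states do not overlap, whereas Kit stays between 3.12 and 50.5 TPM in the monocyte state and 1 Cd27 line, clone 20, rises.

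Kit, the receptor for SCF, was the member that was lost least completely. Progenitor libraries had a lowest Kit level of 21.8 TPM, a median of 61.9 TPM and a highest of 125 TPM, and monocyte libraries 3.12, 15.3 and 50.5 TPM. The level was lower in the monocyte library of all 24 clones, a pattern seen in 3.79% of genes tested, yet the states overlapped: 18 of 24 monocyte libraries lay below the lowest progenitor. Means were 67.1 ± 33.9 TPM and 17.6 ± 10.8 TPM (SD, n = 24 each). The log2 fold change was -1.91 (SE 0.21, limma adjusted p = 6.31e-09), and the fall ranked 267 of 11072. Monocytes kept a median of 28.2% of their own clone's progenitor Kit level, from 3.20% in clone 23 to 69.7% in clone 9. Clone 22 kept the highest monocyte level, 50.5 TPM from 105 TPM, while clone 23, with a similar 97.6 TPM as progenitors, fell to 3.12 TPM. Monocyte 22 had the lowest neutrophil marker sum of the 24, 343 TPM against a median of 72955 TPM. Monocyte 23 also lay far below that median, with 1867 TPM. Monocyte and macrophage markers summed to 3275 TPM in clone 22 and 11948 TPM in clone 23. The part of these differences in the Kit levels was not tested.

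Flt3, the receptor for Flt3 ligand, was near 0 in the monocyte libraries. Progenitor levels ran from 4.15 TPM in clone 24 through a median of 19.7 to 34.6 TPM in clone 15, and monocyte levels from 0 through a median of 0.0464 to 0.165 TPM. The states did not overlap, and the lowest progenitor was 25.2 times the highest monocyte, the widest gap among the 5 genes. Flt3 was listed at 0 in the monocyte libraries of clones 18 and 24. The log2 fold change was -4.12 (SE 0.14, limma adjusted p = 5.79e-19) and was limited by the pseudocount of 1: with 0.1 it was -6.78 and with 5 it was -2.18.

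Cd34, the sialomucin, was the most abundant of the 5 among progenitors. It ran from 119 TPM in clone 21 through a median of 403 to 742 TPM in clone 8 among progenitors, and from 1.22 through 6.32 to 17.96 TPM among monocytes. The states did not overlap, and the lowest progenitor was 6.63 times the highest monocyte. Its log2 fold change of -5.85 (SE 0.19, limma adjusted p = 9.66e-20) was the largest fall among the 11072 genes with the pseudocount of 1. With 0.1 it was not, since Flt3 fell by 6.78 and no alternative took Cd34 beyond -6.19. Monocytes kept between 0.226% (clone 15) and 4.74% (clone 19) of their progenitor level.

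Cd27, the TNF receptor family member, was the lowest of the 5 among progenitors and by far the most uneven. Progenitor levels ran from 0.362 TPM in clone 20 through a median of 7.24 to 39.5 TPM in clone 16, a 109-fold range, against 5.75-fold for Kit, 8.33-fold for Flt3, 6.23-fold for Cd34 and 13.04-fold for Ctla2a. Clones 16 and 21 stood highest with 39.5 and 39.2 TPM, and clones 20, 24 and 26 stood lowest with 0.362, 1.05 and 0.976 TPM. These high and low values all lie in clones 15 to 26, where the coefficient of variation was 102%, against 56.3% in clones 1 to 13. Clones 20 and 21, at opposite ends, are the progenitors with the most neutrophil and monocyte transcripts, and the part of such cells in their levels of Cd27, Ctla2a and Cd34 was not tested. Monocyte levels ran from 0 through 0.101 to 0.712 TPM, and Cd27 was listed at 0 in clones 5 and 23. The log2 fold change was -2.85 (SE 0.24, limma adjusted p = 3.88e-11), with a fall in 23 of 24 clones. With a pseudocount of 0.1 it was -5.01 and with 5 it was -1.36. In the exception, clone 20, the progenitor level was already below 1 TPM and the monocyte library had 0.501 TPM. The states overlapped through that library, since 23 of 24 progenitors lay above the highest monocyte.

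Ctla2a, the protease inhibitor, ran from 26.5 TPM in clone 20 through a median of 159 to 345 TPM in clone 4 among progenitors, and from 0.651 through 1.87 to 20.3 TPM among monocytes. The states did not overlap, but the lowest progenitor was only 1.30 times the highest monocyte, clone 19. Without clones 19, 21, 24 and 26 the log2 fold change was -5.61, and with all 24 clones it was -5.40 (SE 0.19, limma adjusted p = 1.05e-18). Part of the gene's sequence is not its own. Of its distinct stretches of 31 bases in the GENCODE M21 transcripts, 37.3% also occur in transcripts of other genes. Its paralog Ctla2b shares 20.7%, and a gene model named Gm49391, which is not among the gene rows at hand, shares 22.8%. For Kit the shared part was 0%, for Flt3 0.719%, for Cd34 2.78% and for Cd27 4.56%. For Ctla2b it was 76.1%, with 26.3% found in transcripts of Ctla2a and 58.8% in those of Gm49391. The division of reads therefore makes Ctla2a and Ctla2b the uncertain values.

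Kit fell less than each of the others within the same clones. On the log2(TPM + 1) scale its change exceeded that of Cd34 by 3.94 (SE 0.25, smaller fall in 24 of 24 clones), of Ctla2a by 3.48 (SE 0.34, 23 of 24) and of Flt3 by 2.21 (SE 0.19, 23 of 24), each with an adjusted p of 1.33e-05 in a two-sided sign-flip permutation test over clones, whose raw p of 1e-05 is the smallest that 100000 resamples can give. Against Cd27 the difference was 0.94 (SE 0.37, 19 of 24, permutation adjusted p = 0.0188). That last difference depended on the scale: with a pseudocount of 5, at which the low Cd27 counts for less, it was -0.29 (permutation adjusted p = 0.272), and within clones 15 to 26 it was 0.48 (permutation p = 0.505).

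**Figure D2:**
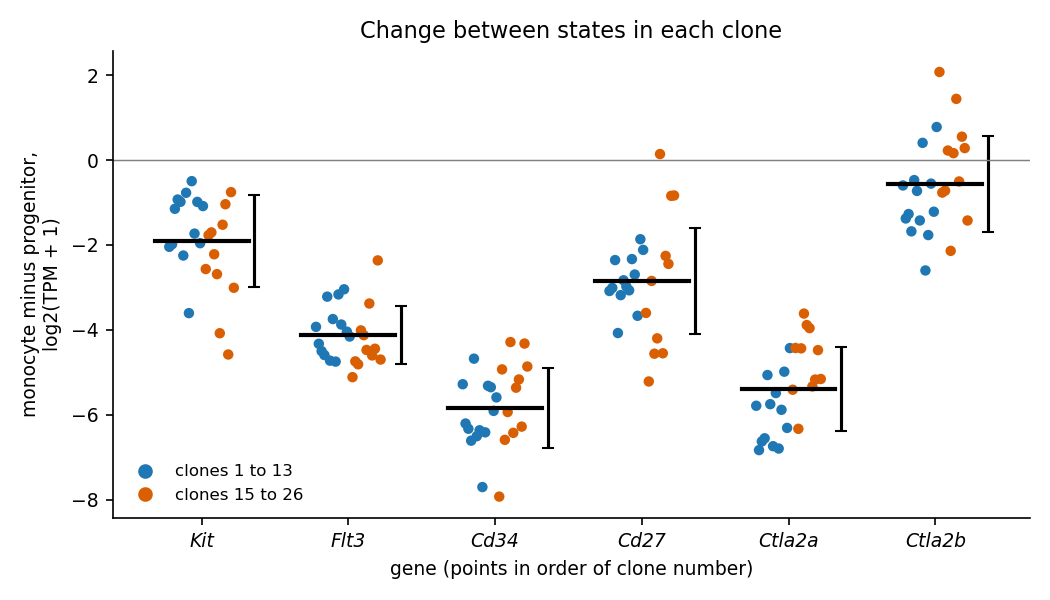
Monocyte minus progenitor level on the log2(TPM + 1) scale for each clone (points in order of clone number; blue, clones 1 to 13; orange, clones 15 to 26), with the mean over 24 clones as a black line and the SD over clones as a bar beside it. The Kit mean lies nearer 0 than those of Flt3, Cd34, Cd27 and Ctla2a, 1 Cd27 point lies above 0, and the Ctla2b points lie on both sides of 0.

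The order of the genes changed between the states. Among progenitors the order by mean level was Cd34, Ctla2a, Kit, Flt3 and Cd27, and each gene was above the next in paired comparisons within libraries (two-sided sign-flip permutation tests, adjusted p at most 0.000411, in 23, 17, 24 and 19 of 24 clones). The step from Ctla2a to Kit came from clones 1 to 13, in which Ctla2a was higher in 13 of 13. In clones 15 to 26 it was higher in only 4 of 11 (permutation adjusted p = 0.950), and there Flt3 was not separated from Cd27 (7 of 11, permutation adjusted p = 0.0806). Among monocytes Kit came first, above Cd34 in 23 of 24 clones, Cd34 was above Ctla2a in 22 of 24 and Ctla2a above Cd27 in 24 of 24, each with a permutation adjusted p of 1.6e-05. Cd27 and Flt3 were not separated (12 of 24, mean log2 difference 0.10, permutation adjusted p = 0.0533).

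The ligands of these receptors were looked up too, and 2 of the 3 lay below the filter of a mean of 1 TPM. Kitl was at 0 in all 24 progenitor libraries and at most 0.0609 TPM among monocytes, and Cd70 had a highest level of 0.0239 TPM among progenitors and 0.0901 TPM among monocytes. Flt3l, the ligand of Flt3, was transcribed in both states, with means of 8.41 ± 9.70 TPM among progenitors and 7.06 ± 5.54 TPM among monocytes (SD, n = 24 each). It was lower in the monocytes of 7 of 24 clones, and its log2 fold change of 0.12 (SE 0.22, limma adjusted p = 0.627) was smaller than the spread between clones. Within clones 1 to 13 it was 0.51 (limma adjusted p = 0.0296) and within clones 15 to 26 it was -0.33 (limma adjusted p = 0.470), a difference of -0.84 that did not pass (limma adjusted p = 0.178).

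Ctla2a and Ctla2b lie close together on chromosome 13 and parted between the states. Ctla2b ran from 0 through 9.18 to 17.7 TPM among progenitors and from 0.896 through 5.07 to 41.0 TPM among monocytes. The states of Ctla2b overlapped, with a fall in 16 of 24 clones and a log2 fold change of -0.56 (SE 0.22, limma adjusted p = 0.0265). It passed in 7 of 10 alternatives and did not with a pseudocount of 0.1 (limma adjusted p = 0.101), with no filter on low values (0.0521) or within clones 15 to 26, where it was -0.08 (0.864). Ctla2a was above Ctla2b in 24 of 24 progenitor libraries, by a median of 19.9-fold over the 23 libraries in which Ctla2b was above 0. In the monocyte libraries it was above Ctla2b in 4 of 24, and its median was 0.505 of the Ctla2b level. Progenitor 21, one of the libraries that stood apart, was the one with Ctla2b at 0. The change of Ctla2a was the more negative in 24 of 24 clones, with a mean log2 difference of -4.84 (SE 0.22, two-sided sign-flip permutation p = 1e-05). Taken alone, clones 1 to 13 gave -4.98, and the other 11 clones gave -4.67. How far the shared sequence moves reads between the pair was not tested.

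**Figure D3:**
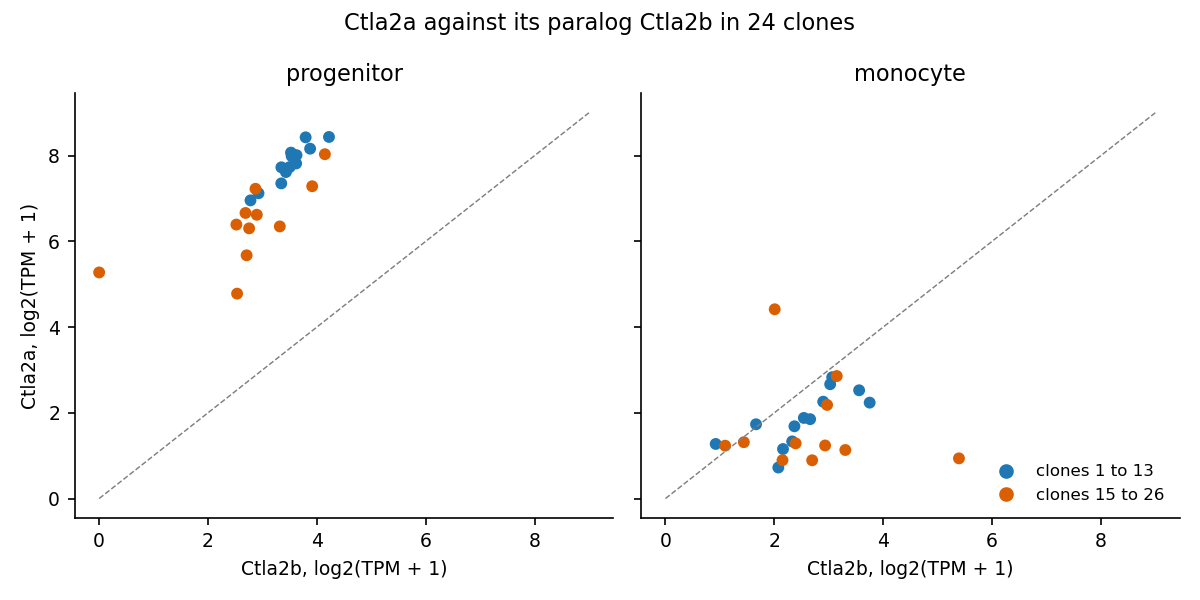
Ctla2a against Ctla2b, both as log2(TPM + 1), in the progenitor (left) and monocyte (right) library of each clone (blue, clones 1 to 13; orange, clones 15 to 26; dashed line, equal levels). All 24 progenitor points lie above the line, and 4 of the 24 monocyte points do.

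The upstream sequences of the pair are nearly alike, and they are shown because the paralogs differ in how far they fell. Aligned, 208 of 228 paired bases were identical (91.2%, or 76.5% of 272 columns with gaps counted). RefSeq start sites on GRCm38.p6 were used, and capitals mark the core bound by ETS factors (AGGAAG), that of RUNX factors (TGTGGT) and that of GATA factors (AGATAA, and also the form that starts with T instead, TGATAA), each searched on both strands. The 250 bases upstream of Ctla2a are chr13:60936626-60936875 and those of Ctla2b are chr13:60897448-60897697, both on the minus strand and printed 5′ to 3′.
Ctla2a: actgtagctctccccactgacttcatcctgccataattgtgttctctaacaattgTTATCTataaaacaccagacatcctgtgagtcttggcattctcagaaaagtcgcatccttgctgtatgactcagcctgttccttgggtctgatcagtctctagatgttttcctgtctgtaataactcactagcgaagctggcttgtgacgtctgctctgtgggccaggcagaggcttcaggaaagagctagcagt
Ctla2b: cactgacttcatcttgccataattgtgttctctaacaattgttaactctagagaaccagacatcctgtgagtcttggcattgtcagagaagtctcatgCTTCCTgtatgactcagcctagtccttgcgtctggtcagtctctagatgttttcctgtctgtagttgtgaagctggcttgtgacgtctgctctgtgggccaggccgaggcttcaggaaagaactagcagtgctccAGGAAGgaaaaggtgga
The TTATCT of Ctla2a starts at -195 from its start site. In Ctla2b the ETS letters start at -152 and -17. A match is a description of the letters only.

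Kit, Flt3 and Cd34 are the members whose progenitor levels varied together, and most other genes compared varied with them too, as given below. Their upstream sequences are shown for comparison with the same letters in capitals. They are chr5:75574737-75574915 on the plus strand for Kit, printed as far as the start of the GENCODE gene, chr5:147400490-147400739 on the minus strand for Flt3, and chr1:194938571-194938818 on the plus strand for Cd34.
Kit: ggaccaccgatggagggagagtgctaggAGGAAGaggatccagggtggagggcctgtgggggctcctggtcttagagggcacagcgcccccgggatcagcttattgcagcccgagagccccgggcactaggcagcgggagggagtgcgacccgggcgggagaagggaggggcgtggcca
Flt3: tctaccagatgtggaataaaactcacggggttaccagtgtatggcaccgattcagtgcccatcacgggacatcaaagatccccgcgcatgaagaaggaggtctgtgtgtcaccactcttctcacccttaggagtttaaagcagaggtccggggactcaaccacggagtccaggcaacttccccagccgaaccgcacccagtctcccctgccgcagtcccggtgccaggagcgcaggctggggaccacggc
Cd34: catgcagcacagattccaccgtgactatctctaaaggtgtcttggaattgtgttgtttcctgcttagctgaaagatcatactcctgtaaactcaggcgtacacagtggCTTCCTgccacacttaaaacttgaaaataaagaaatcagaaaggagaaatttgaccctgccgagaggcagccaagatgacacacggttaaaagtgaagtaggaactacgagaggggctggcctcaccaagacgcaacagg
The Kit window holds AGGAAG at -222 and the Cd34 window CTTCCT at -142. Their base composition differed, with 69.3% G and C for Kit, 59.2% for Flt3 and 46.4% for Cd34. The ETS letters occur in 29.2% of 27025 RefSeq promoters over the same 250 bases, the GATA letters in 16.99% and the RUNX letters in 14.2%, and they were found in 2, 1 and 0 of the 5 members. Of 6 further motifs searched, E-box letters (CAGNTG, 44.5% of promoters) were found in Flt3 and Cd27, MYB letters (AACNGNC, 27.6%) in Ctla2a and SP/KLF letters (GGGCGG, 32.9%) in Kit. MEIS letters (TGACAG, 15.97%), C/EBP letters (TTGCNNAA, 9.55%) and HOX-PBX letters (TGATNNAT, 7.91%) were in none of the 5.

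The genes themselves are spread over the genome. In the GENCODE M21 annotation of mm10, Kit covers chr5:75574916-75656722 on the plus strand and Flt3 chr5:147330741-147400489 on the minus strand, far apart on the same chromosome. Cd34 covers chr1:194938819-194961279 on the plus strand, Cd27 chr6:125232622-125237010 on the minus strand, and Ctla2a and Ctla2b chr13:60934155-60936625 and chr13:60895350-60897447 on the minus strand. All 6 are protein-coding.

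Among progenitors 3 of the 5 genes differed between the 2 sets of clones. Kit was higher in clones 15 to 26, with a median of 105 TPM (21.8 to 125) against 44.5 TPM (26.03 to 79.4) in clones 1 to 13. Ctla2a was lower there, with a median of 83.0 TPM (26.5 to 261) against 225 TPM (123 to 345), and Cd34 was lower, with 332 TPM (119 to 541) against 485 TPM (350 to 742). The ranges overlapped in all 3. The log2 differences were 0.92 for Kit (SE 0.25, limma adjusted p = 0.00567), -1.38 for Ctla2a (SE 0.28, limma adjusted p = 0.000411) and -0.67 for Cd34 (SE 0.20, limma adjusted p = 0.0115), in a comparison in which 39.4% of all genes tested passed, made up of 28.5% that were higher and 10.9% that were lower in clones 15 to 26. Flt3 differed by 0.18 (SE 0.27, limma adjusted p = 0.618) and Cd27 by 0.16 (SE 0.50, limma adjusted p = 0.816). Without clones 19, 21, 24 and 26 the Cd34 difference was -0.32 (limma adjusted p = 0.0745) and the Flt3 difference 0.55 (limma adjusted p = 0.0362), so these 4 clones decide both. Mitochondrial share and the number of genes detected differ between the same sets, as given above, and their part in these differences was not tested.

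Among monocytes none of the 5 passed between the sets, with limma adjusted p from 0.187 to 0.896 where 7.11% of genes passed. At an unadjusted p under 0.05 there was 1, Cd27, with a log2 difference of 0.19. The change between states itself differed between the sets for 1 of the 5. The log2 fold change of Ctla2a was -5.94 among clones 1 to 13, against -4.75 among clones 15 to 26, a difference of 1.20 (SE 0.32, limma adjusted p = 0.0183), where 11.5% of genes passed. It did not pass with a pseudocount of 0.1 (limma adjusted p = 0.0823), without clones 19, 21, 24 and 26 (0.0537) or with no replicate block (0.0763). For Kit the corresponding values were -1.54 and -2.36, a difference of -0.82 with an interval from -1.64 to -0.0053 that did not pass after adjustment (limma adjusted p = 0.170).

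Within the progenitor state Kit, Flt3 and Cd34 varied together from clone to clone. With the mean of each set of clones removed, r was 0.79 for Kit and Flt3 (rho 0.63), 0.78 for Kit and Cd34 (rho 0.72) and 0.82 for Flt3 and Cd34 (rho 0.87), with permutation p of 0.00022, 7e-05 and 1e-05 for r and 0.00125, 0.0001 and 1e-05 for rho (n = 24), and permutation adjusted p for r over 20 relations of 0.00147, 0.0007 and 0.0002. Within clones 1 to 13 the r values were 0.64, 0.78 and 0.74, and Kit with Flt3 did not pass (permutation adjusted p = 0.138). Within clones 15 to 26 they were 0.88, 0.80 and 0.87, and all 3 passed. By rank these were less even, with rho of 0.41, 0.48 and 0.92 (permutation p of 0.213, 0.138 and 0.0002). With the sets centred and clones 19, 21, 24 and 26 left out, r was 0.56, 0.66 and 0.71. Kit with Flt3 then did not pass (permutation adjusted p = 0.0951).

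Pooled over all clones the picture was less even. Kit with Flt3 had r = 0.71 (permutation p = 0.0001, adjusted 0.002; rho 0.66, permutation p = 0.00067) and Flt3 with Cd34 r = 0.60 (permutation p = 0.00263, adjusted 0.0175; rho 0.51, permutation p = 0.0121). Kit with Cd34 had r = 0.19 (permutation p = 0.382, adjusted 0.588; rho 0.06, permutation p = 0.774), and the sets differ in Kit and Cd34 in opposite directions, as given above. In a further setting the 2 clones farthest from the median of the first-named gene were left out, chosen anew for each relation. These r were then 0.60, 0.49 and -0.02, and 0 of the 20 relations passed after adjustment. At all clones 5 of 20 passed, 1 of them the relation of Cd34 with Cd27 among monocytes described below.

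Relations of Ctla2a and Cd27 with these 3 genes among progenitors did not pass with the sets centred. Ctla2a with Kit had r = 0.22 with the sets centred (permutation adjusted p = 0.577) and Ctla2a with Flt3 had r = 0.09 (permutation adjusted p = 0.843). For Cd27 r was 0.31 with Kit, 0.078 with Flt3 and 0.032 with Cd34 (permutation adjusted p of 0.504, 0.843 and 0.908). Ctla2a with Cd34 had a pooled r of 0.53 (permutation p = 0.00752, adjusted 0.0301; rho 0.38, permutation p = 0.0709), which was 0.24 with the sets centred, 0.03 within clones 1 to 13 and 0.29 within clones 15 to 26. In the monocyte state Cd34 and Ctla2a had r = 0.55 (permutation p = 0.00502, adjusted 0.0251) and rho 0.57 (permutation p = 0.00385). With the sets centred r was 0.54 (permutation adjusted p = 0.0346). It did not pass within the sets, with r of 0.39 and 0.61 (permutation adjusted p = 0.742 and 0.131). Nor did it pass centred without clones 19, 21, 24 and 26 (0.0951) or without the 2 clones farthest from the Cd34 median (0.111). Cd34 with Cd27 among monocytes fell into separate clusters over all clones and within clones 15 to 26, so it has no usable pooled r although it counts among the 5 above. With the sets centred r was -0.60 (permutation p = 0.00751, adjusted 0.0346; rho -0.53, permutation p = 0.0102), and with clones 19, 21, 24 and 26 also left out it was -0.51 (permutation adjusted p = 0.226). Within clones 1 to 13 it was -0.12 (permutation p = 0.698). The centred r still includes the clones that form the clusters, and monocyte Cd27 was at most 0.712 TPM, near 0.

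The joint variation of Kit, Flt3 and Cd34 moved with how many genes a library detected. Against the number of genes with at least 1 TPM, sets centred, r was 0.93 for Kit, 0.82 for Flt3 and 0.80 for Cd34 (rho 0.84, 0.65 and 0.75; permutation p of 1e-05, 0.0001 and 0.00014 for r; n = 24), and 0.92, 0.62 and 0.63 without clones 19, 21, 24 and 26. For Cd27 it was 0.27 and for Ctla2a 0.07 (permutation adjusted p = 0.493 and 0.787 over 10 relations). Of 7200 other genes with a mean of at least 5 TPM in progenitors, 74.3% had r above 0.5 with Kit, 69.6% with Flt3 and 66.2% with Cd34, against 5.94% with Cd27 and 0.625% with Ctla2a. The part of this shared variation in the relation between them was not tested.

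**Figure D4:**
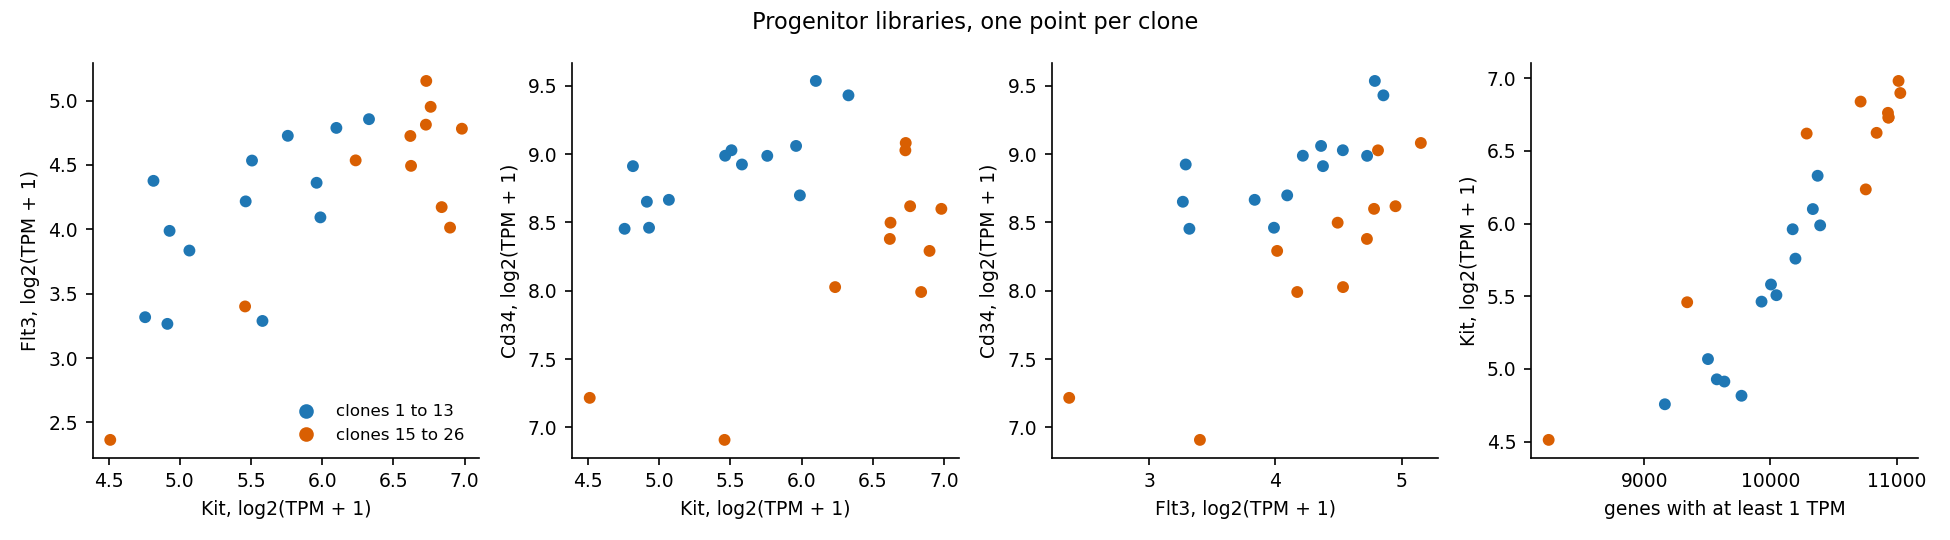
Levels of Kit, Flt3 and Cd34 as log2(TPM + 1) against each other, and Kit against the number of genes with at least 1 TPM, in the 24 progenitor libraries (blue, clones 1 to 13; orange, clones 15 to 26). Within each colour all 3 pairs have a positive r. In orange rho is 0.41 for Kit with Flt3 and 0.48 for Kit with Cd34. The rightmost panel shows the rise of Kit from 21.8 TPM in the library with 8240 genes to 125 TPM.

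The genes most like each member over the 24 progenitor libraries, sets centred, were listed from 7201 genes by r, as a description. For Kit they were Phldb3, Ripor1 and Stat5b (0.97, 0.97 and 0.96), and for Kit 485 genes had r above 0.9. For Flt3 they were Myo7a, Plcg2 and B2m (0.94, 0.93 and 0.93), and for Cd34 Cd164, another sialomucin of progenitors, Prkacb and Dcun1d1 (0.95, 0.94 and 0.94). Cd27 had Smco4 (0.92), Map7 (0.80) and 2700062C07Rik (0.77). Within clones 1 to 13 these r were 0.63, 0.47 and 0.47, and within clones 15 to 26 they were 0.96, 0.88 and 0.81. Ctla2a had Ptgds, a prostaglandin D synthase (0.78), Ctla2b (0.73) and Cpa3, the mast cell carboxypeptidase (0.70). For these 3, r was 0.74, 0.93 and 0.60 within clones 1 to 13 and 0.90, 0.69 and 0.77 within clones 15 to 26. Ctla2b shares sequence with Ctla2a, as given above, and the part of that sequence in their r was not tested.

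A clone's level as a progenitor was not carried into its monocytes to a degree that passed. Between the states r was 0.17 for Kit (permutation adjusted p = 0.617; rho 0.34), 0.05 for Flt3 (0.817; rho 0.03), 0.15 for Cd34 (0.617; rho 0.03) and 0.44 for Ctla2a (permutation p = 0.0342, adjusted 0.171; rho 0.47), over 24 clones. For Ctla2a it was -0.01 within clones 1 to 13 and 0.69 within clones 15 to 26, where clone 19 was highest in both states. Monocyte Cd27 formed separate clusters, and within clones 1 to 13 its r was 0.31 (permutation p = 0.303).

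Hoxb8, the homeobox factor of the transgene, was related to 3 of the 5 over the pooled clones. Pooled over 24 progenitor libraries, r with Hoxb8 was 0.55 for Kit (permutation p = 0.00645; rho 0.60), -0.50 for Cd34 (permutation p = 0.0110; rho -0.38) and -0.53 for Ctla2a (permutation p = 0.00789; rho -0.56), each with an adjusted p of 0.0368 over 10 relations. Hoxb8 itself was higher in progenitors of clones 15 to 26 by 2.34 on the log2 scale (SE 0.26, limma adjusted p = 4.97e-07). Between states its means were 183 TPM in progenitors and 208 TPM in monocytes, and it was lower in monocytes of 7 of 24 clones. Its log2 change was 0.56 (limma adjusted p = 0.0192), which did not pass with no replicate block or after rescaling. That change differed by -1.55 in clones 15 to 26 from clones 1 to 13 (limma adjusted p = 0.0018). With the sets centred, and within each set, 0 of 10 relations passed. Without the 2 clones farthest from the Hoxb8 median 4 passed, with r = 0.77 for Kit (permutation adjusted p = 0.0008, rho 0.78). After rescaling without mitochondrial, Gm and pseudogene entries 2 passed.

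Most intracellular partners of Kit and Flt3 did not fall with the receptors. Of 26 measured genes of Kit ligand and signalling, 18 rose, 5 fell and 3 did not pass, with a median log2 change of 0.54, beside 3584 higher and 4039 lower of 11072 genes and a median of -0.06 over all of them. Among those that rose were Sh2b2, an adaptor of receptor kinases, from 9.36 to 80.8 TPM (log2 change 2.93, limma adjusted p = 8.49e-10), Cbl, a ubiquitin ligase that removes active receptors (1.71, 9.58e-05), and Ptpn6, a phosphatase that restrains Kit (1.70, 8.44e-09). Of 17 measured genes of Flt3 ligand and signalling, 13 rose, 1 fell and 3 did not pass, led by the phosphatases Ptprj (2.10, 3.96e-12) and Ptpn1 (1.95, 8.43e-09) and the kinase Syk (1.83, 3.26e-10). Removing mitochondrial, Gm and pseudogene entries and rescaling moved the median of all genes to -0.25. The Kit list then had 10 higher and 5 lower and the Flt3 list 9 and 1. Within clones 15 to 26 alone, with fewer samples, the Kit list had 8 higher and the Flt3 list 6. The lists share genes, among them Cbl and Stat5b, so their counts are not separate.

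Several relatives of the 5 genes rose. Csf1r, the class III receptor kinase for the macrophage growth factor, rose from 2.02 ± 2.82 to 81.6 ± 65.8 TPM (SD, n = 24 each; log2 change 4.74, SE 0.32, limma adjusted p = 3.58e-13) and was higher in the monocytes of all 24 clones. Pdgfrb, of the same class, fell by 1.37 on the log2 scale (limma adjusted p = 2.29e-10). Of 11 measured TNF receptor family genes other than Cd27, 8 rose and 3 did not pass, led by Fas (2.62), Tnfrsf1b (2.42) and Tnfrsf1a (1.95). Of 13 measured genes of CD27 ligand and TNF receptor signalling, 8 rose and 1 fell, led by Relb (1.76), Birc3 (1.58) and Nfkb2 (1.50). With a filter of 5 TPM that signalling list had 4 higher, and clones 15 to 26 alone gave 5 higher and 0 lower. Rescaled, it had 3 lower, and the TNF receptor list with Cd27 included had 2 lower. The cysteine proteases, the class of enzyme that Ctla2 proteins inhibit, rose in 7 of 7 measured cases, led by Ctss (5.96) and Ctsb (4.30).

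**Figure D5:**
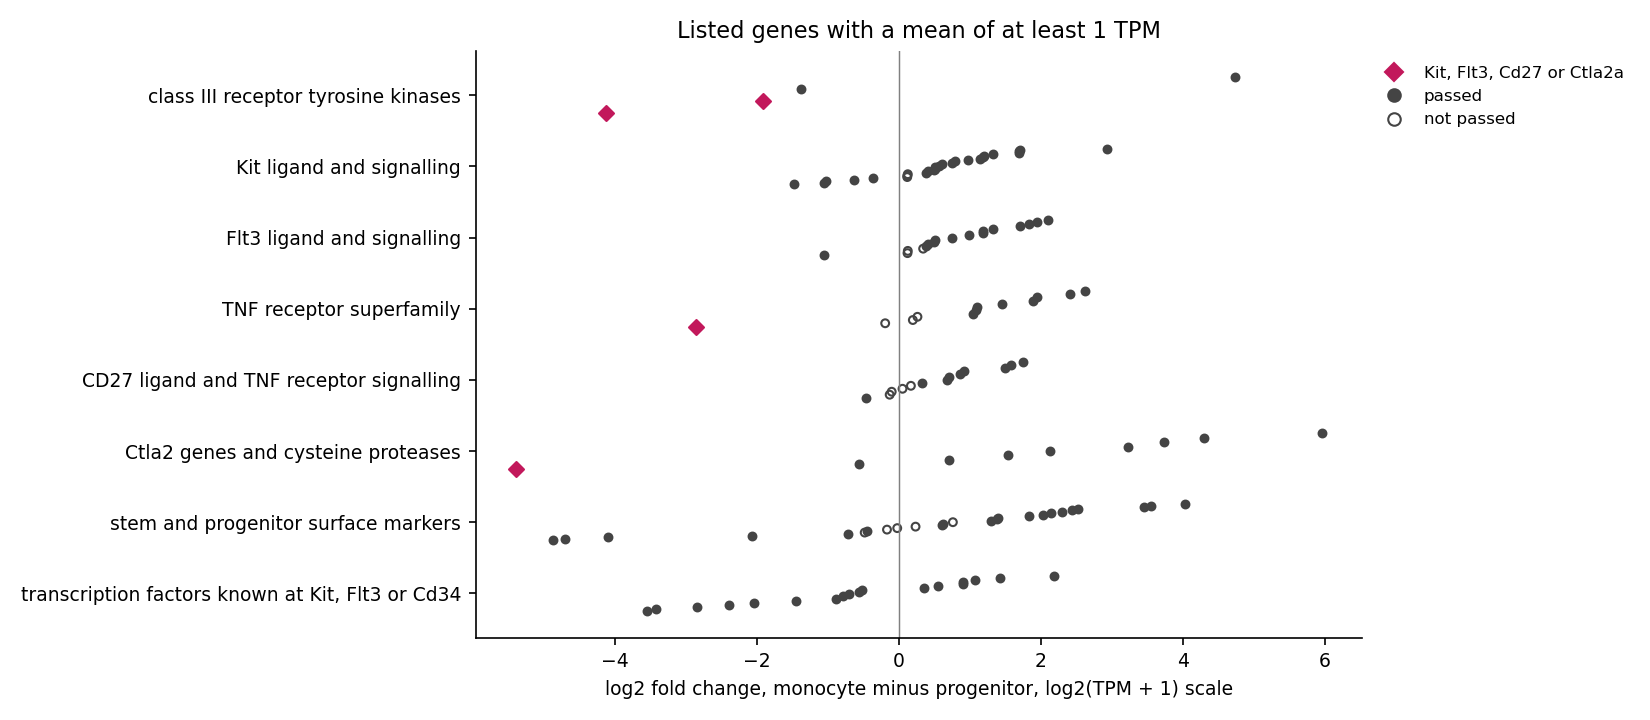
Log2 fold change between states (monocyte minus progenitor, log2(TPM + 1) scale) of the genes in 8 lists with a mean of at least 1 TPM; filled points passed limma at an adjusted p under 0.05, open points did not, and diamonds are Kit, Flt3, Cd27 and Ctla2a. The diamonds lie at -1.91 or below, and most other genes of the receptor and signalling lists lie above 0.

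Other progenitor surface markers were mixed. Of 25 measured, 14 rose, 6 fell and 5 did not pass, with a median of 0.76. The adhesion receptors Adgrg1 (-4.88) and Adgrl4 (-4.70) and the integrin chain Itga2b (-4.10) fell, as Cd34 did, in all 24 clones, while the tetraspanin Cd9 rose by 4.03 on the log2 scale. Of 18 measured transcription factors known at the Kit, Flt3 or Cd34 genes, 11 fell, led by Gata2 (-3.55), Myb (-3.42) and Myc (-2.84), and 7 rose, led by Spi1 (2.19). Cd9 and Spi1 were chosen after their values were seen. The rescaled values gave 4 higher and 11 lower.

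Markers of cell types known to keep one of these genes are given beside it. The 8 mast cell and basophil markers summed to between 330 and 3155 TPM (median 1518) among progenitors and between 12.5 and 3595 TPM (median 142) among monocytes, and 6 of the 8 reached a mean of 1 TPM in each state. The most abundant of them among progenitors, Cpa3, had means of 1306 and 60.4 TPM. Mcpt8 (210 and 97.0 TPM), Hdc (121 and 59.3 TPM) and Ms4a2 (17.4 and 2.53 TPM) were also lower among monocytes. The tryptase Tpsb2 was higher there, with 1.78 and 53.3 TPM. The chymase Cma1 had 47.0 and 88.1 TPM, with a highest monocyte value of 1183 TPM, and its change did not pass (limma adjusted p = 0.661). The other 2 were near 0, Fcer1a with means of 0.0713 and 0.0822 TPM and Tpsab1 with 0.0138 and 0.184 TPM. The monocyte library with the most Kit, clone 22, ranked 11 of 24 in the mast cell sum, and the library with the highest sum, clone 19, ranked 11 of 24 in Kit. That same library had the highest monocyte Ctla2a. The 8 dendritic cell markers summed to at most 21.6 TPM among monocytes, where Flt3 was at most 0.165 TPM, and the 8 lymphoid markers to at most 5.74 TPM. These sums depend on the markers chosen. A longer mast cell and basophil list had 5 of 8 measured genes lower in monocytes, 2 higher and 1 that did not pass. In a longer dendritic list without Flt3, 4 of 5 measured genes were higher in monocytes and 1 was lower. Among the higher ones, Irf8 and Clec10a, outside the 8, had monocyte means of 38.7 and 30.96 TPM. In a longer lymphoid list 4 of 5 measured genes were lower. The other, Il7r, also outside the 8, was higher, with a monocyte mean of 11.98 TPM. The part of such cells in the monocyte levels of Kit and Ctla2a was not tested.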

How the data were processed

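RNA-seq of 48 libraries was analysed, 24 clones in 2 states. The authors deposited TPM per gene, made with Salmon on mm10 per the submitters' processing notes; the sources at hand do not state the annotation or how transcripts were summed. Depth cannot be recovered from TPM, and counting error is unknown. A total of 26 rows named as dates were left out. Groups came from the source labels and clone numbers from the titles, and the design text says that the states are paired by clone. As a check, deviations from the state means correlated above 0.1 between the libraries of a clone in 18 of 24 clones. With each set centred this held in 12: 2 of the 13 clones numbered 1 to 13 and 10 of the other 11.

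Genes with a mean of at least 1 TPM (11072) entered limma (version 3.58.1, under R 4.3.3), fitted to log2(TPM + 1) with a mean-variance trend and, for states, clone as the block. Tests were two-sided, with a Benjamini-Hochberg threshold of 0.05. The method was tested on simulated data. Since 1 is added before the log2, the fold of a low gene is understated. List genes with that mean are called measured. Correlations and paired levels used 100000 permutations in numpy 2.4.6 under Python 3.11.15, with scipy 1.17.1 and pandas 2.3.3 for tables. Figures used matplotlib 3.10.9. Promoters came from RefSeq (GRCm38.p6), and 6 of 6 genes sought were matched. Named genes were the 5 members, Kitl, Flt3l, Cd70, Ctla2b, Hoxb8, at most 3 other genes of each list (those that passed and changed most), and the 3 genes most like each member. The members and lists were chosen with earlier results of these data known. Alternatives were other pseudocounts, filters, block settings, rescaling, each set of clones alone and clones left out.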

Additional observations from a re-analysis of the deposited data

Results flagged for a closer look

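The change of Ctla2a between states differed between the sets of clones, by 1.20 on the log2 scale in a test of the difference itself (limma adjusted p = 0.0183). It fell in all 24 clones, with a smaller mean fall in clones 15 to 26. Their progenitor levels were the lower ones, with a median of 83.0 against 225 TPM.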

How the results depend on the processing

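All 5 genes kept their fall and passed under all 10 alternatives to the state comparison. With 1 clone left out at a time (24 fits) the log2 fold changes ranged from -1.98 to -1.80 for Kit, -4.20 to -4.08 for Flt3, -5.92 to -5.76 for Cd34, -2.98 to -2.75 for Cd27 and -5.47 to -5.33 for Ctla2a, and the genes called ranged from 7453 to 7852, 3460 to 3745 higher and 3877 to 4378 lower. With no replicate block 7436 genes were called in place of 7623. Clones 15 to 26 alone gave 5053, of them 1995 higher, with fewer samples. With no filter on low values 6152 were lower, with more genes tested. Flt3l changed sign without mitochondrial, Gm and pseudogene entries (-0.059), in clones 15 to 26 (-0.33) and without clones 19, 21, 24 and 26 (-0.0026), and passed in none of these. Ctla2b did not pass with a pseudocount of 0.1 (limma adjusted p = 0.101), no filter (0.0521), clones 15 to 26 alone (0.864) or, among the 24 fits with 1 clone left out, without clone 9 (0.0531).

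Between the sets of clones, omission of clones 19, 21, 24 and 26 gave progenitor differences of 0.55 for Flt3, which then passed, and -0.32 for Cd34, which then did not. The differences in state change were then -0.16 for Cd34 and -0.10 for Cd27, both of changed sign, and 0.94 for Ctla2a, which did not pass. Ctla2a did not pass with a pseudocount of 0.1 (1.06) or no replicate block (1.20). Cd27 changed sign among progenitors with a pseudocount of 0.1 (-0.024) and in its state change with 5 (-0.25), and never passed. The cause was not tested.

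Of 20 relations between members, 5 passed, against 2 in clones 1 to 13 and 3 after rescaling. With the sets centred and those 4 clones left out 2 passed. Without the 2 clones farthest from the median of the first gene of each relation 0 passed, and Kit and Cd34 had r = -0.023. For Hoxb8, 3 of 10 passed, against 0 with the sets centred, 0 with those 4 clones also left out, 0 in clones 1 to 13, 0 in clones 15 to 26, 4 without the 2 clones farthest from the median and 2 after rescaling. In clones 15 to 26 the mean log2 difference of Ctla2a over Kit was 0.020 and of Flt3 over Cd27 1.18, neither passing, and monocyte Cd27 was above Flt3 by 0.24, which passed; in clones 1 to 13 it was -0.020. Kit minus Cd27 was -0.29 with a pseudocount of 5 and 0.48 in clones 15 to 26. The comparisons of Kit with other members and of Ctla2a with Ctla2b, the correlations with those 4 clones left out of the centred sets, and the relations to the number of genes detected were chosen after seeing the data. TPM give no depth, so levels near 0 have no error of their own.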
